A study of Mus musculus with 24 samples.

Results

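The effect of losing both Ogg1 and Mutyh on nuclear RNA was compared between neurons and the other cells of the mouse hippocampus. The comparison is a difference of differences: the change from wild type (WT) to double knockout (DKO) in NeuN+ nuclei minus the same change in NeuN- nuclei, called the interaction below. The contrast used 12 of the 24 libraries of the series, 3 replicates in each of 4 groups, joined by gene symbol over both sorts. All 24 libraries were fitted together, so the Mutyh-/- and Ogg1-/- single knockouts entered the estimate of spread and the size factors. All mice were male C57BL/6N aged 6 months, and all libraries held nuclear RNA of the hippocampus. Sorting relied on NeuN, a protein of neuronal nuclei that Rbfox3 encodes. NeuN+ nuclei are those of neurons, and the NeuN- sort takes every nucleus without the antigen, which in this tissue means glia above all. The 4 groups were WT NeuN+, DKO NeuN+, WT NeuN- and DKO NeuN-, where DKO mice lacked both genes (Ogg1-/- Mutyh-/-). Nuclei of several animals were pooled, and what separates the replicates of a group is not clear from the sources, so the p-values measure the spread between these libraries, which may be technical. Per the labels, each sort had its own sequencing lanes, so lane and sort cannot be told apart.

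Ogg1 and Mutyh are DNA glycosylases of base excision repair. Ogg1 removes oxidised guanine from DNA, and Mutyh removes adenine that was paired with oxidised guanine. Neurons and glia carry the same genome but read out different genes, so a lost gene can be followed in each by the RNA that its nuclei hold.

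Total counts per library ranged from 60250937 to 92409869, with a median of 69255767.5, and 33523 genes passed the filter on low counts. The effect of the DKO differed between the sorts in 19 genes, 0.0567% of those tested, at an adjusted p under 0.05 (edgeR's quasi-likelihood test of the interaction with Benjamini-Hochberg adjustment over all genes tested). In 13 of them, 0.0388% of the genes tested, the change was more positive in NeuN+ than in NeuN-, and in 6 (0.0179%) it was more negative. All 19 had an absolute interaction above 0.5 on the log2 scale. The number depended on the libraries and the tool: it was 7 without replicate 2 of WT NeuN+, DKO NeuN+ or WT NeuN- and 115 without replicate 3 of DKO NeuN-. DESeq2 gave 206, and the 12 libraries fitted alone gave 11, of which 6 were among the 19. A fit that paired the sorts by genotype and replicate number gave 53, of which 17 were among the 19. An unadjusted p under 0.05 was reached by 3150 genes (9.4%), 1554 in the first direction and 1596 in the second. The same fit gave 114 genes that differed between DKO and WT in NeuN+ (0.34%) and 137 in NeuN- (0.409%) with an adjusted p under 0.05 and a log2 fold change past 0.5 in size (DEGs). For 10 of the 114 and 10 of the 137, the interaction itself passed, so a DEG of one sort was in most cases not shown to differ between the sorts. Nor were most shown to be alike, since 64 of the 114 and 88 of the 137 had an unadjusted interaction p under 0.05. DEGs were chosen on the same libraries, so these counts are no independent evidence. Among the 19 genes, 7 were DEGs in NeuN+ only, 7 in NeuN- only, 3 in both sorts and 2 in neither.

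**Figure D1:**
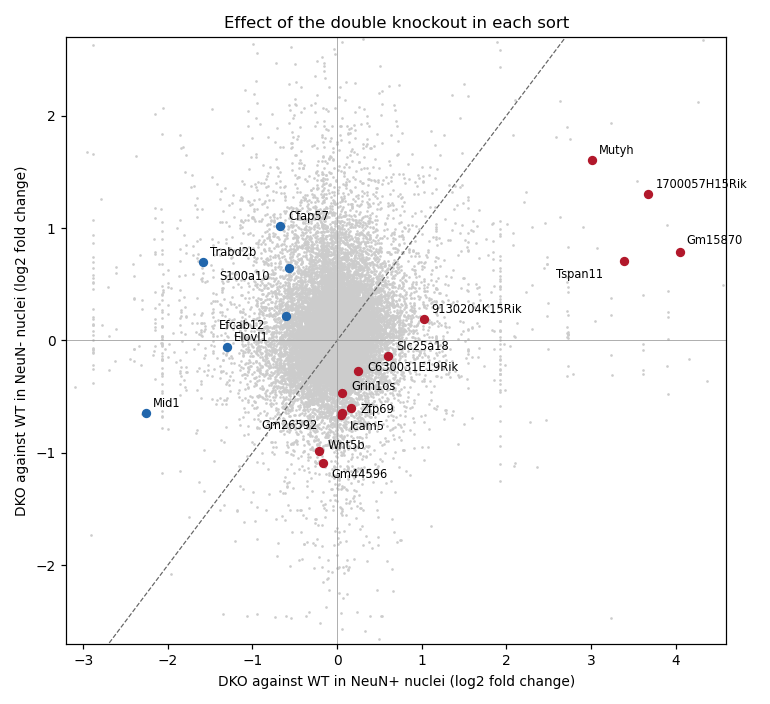
Log2 fold change of DKO against WT in NeuN+ nuclei (horizontal axis) and in NeuN- nuclei (vertical axis) for the tested genes in grey, with axes limited to the range shown, and for the 19 interaction genes in colour. Red points have a change more positive in NeuN+ and lie to the right of the dashed line of equal change, and blue points have a change more negative in NeuN+; Mutyh, Gm15870, Tspan11 and 1700057H15Rik stand far to the right and Mid1 far to the left.

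The 19 genes are described below by the sort in which their RNA changed. The 250 bases before the transcription start are shown for 1 gene of each pattern, Mid1 (a deeper fall in NeuN+), Tspan11 (a rise in NeuN+), Wnt5b (a fall in NeuN-) and Icam5 (a gene of neurons that was lower in NeuN- of the DKO). The sequences are from RefSeq on GRCm38.p6, 5′ to 3′ on the strand of the gene. Mid1 is read from chrX:169684949-169685198 (+), Tspan11 from chr6:127887372-127887621 (+), Wnt5b from chr6:119544348-119544597 (-) and Icam5 from chr9:21031788-21032037 (+). Mid1 and Wnt5b have 3 starts each in that table, and the start shown is the one that matched most GENCODE transcripts of the gene. Capitals mark GC boxes, written GGGCGG or, on the other strand, CCGCCC.
Mid1: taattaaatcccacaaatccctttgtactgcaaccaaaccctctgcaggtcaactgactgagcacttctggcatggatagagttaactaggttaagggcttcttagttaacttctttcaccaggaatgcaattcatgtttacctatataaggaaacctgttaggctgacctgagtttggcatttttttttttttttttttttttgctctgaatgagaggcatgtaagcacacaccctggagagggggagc
Tspan11: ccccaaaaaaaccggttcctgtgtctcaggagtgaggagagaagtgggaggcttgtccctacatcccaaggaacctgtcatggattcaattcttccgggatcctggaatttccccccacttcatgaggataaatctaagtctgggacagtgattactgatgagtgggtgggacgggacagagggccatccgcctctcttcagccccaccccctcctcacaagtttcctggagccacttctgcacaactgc
Wnt5b: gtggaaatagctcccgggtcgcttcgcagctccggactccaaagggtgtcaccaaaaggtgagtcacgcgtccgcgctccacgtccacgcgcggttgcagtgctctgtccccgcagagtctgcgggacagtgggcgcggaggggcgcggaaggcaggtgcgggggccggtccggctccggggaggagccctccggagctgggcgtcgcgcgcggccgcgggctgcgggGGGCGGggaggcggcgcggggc
Icam5: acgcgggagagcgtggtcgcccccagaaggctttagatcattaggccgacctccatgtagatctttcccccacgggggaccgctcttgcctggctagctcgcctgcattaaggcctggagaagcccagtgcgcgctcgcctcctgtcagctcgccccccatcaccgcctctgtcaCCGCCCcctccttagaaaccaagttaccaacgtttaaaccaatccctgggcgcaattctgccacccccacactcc
The GC box was found in 32.7% of the 32851 start sites in the same table, and the median number of CG dinucleotides per window was 6. Wnt5b had 1 GC box and 35 CG dinucleotides, and Icam5 had 1 and 16. Tspan11 had 0 GC boxes and 4 CG dinucleotides, and Mid1 had 0 of either. The other 2 starts of Wnt5b had 4 and 7 CG dinucleotides and those of Mid1 had 5 and 9, so the counts belong to the windows shown and not to the genes.

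The targeted genes were read first. Ogg1 had 2.77, 3.77 and 3.34 CPM (counts scaled to a common library size with TMM factors) in WT NeuN+ and 3.31, 3.25 and 3.51 in DKO NeuN+. It had 6.43, 6.29 and 5.7 CPM in WT NeuN- and 6.87, 7.13 and 5.63 in DKO NeuN-. The genotypes overlapped in both sorts, and the interaction of -0.07 was smaller than its standard error of 0.147 (adjusted p = 0.939, edgeR). The count of Ogg1 is uncertain, since Camk1 overlaps it on the other strand and the strand setting of the counting is not given in the sources used here.

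Mutyh, which lies on chromosome 4 of GRCm38 from 116807723 to 116819440, was among the 19 genes, and it went against the label of the knockout in both sorts. Its level was 1.15, 1.28 and 1.27 CPM in WT NeuN+ and 8.47, 9.2 and 12.2 CPM in the NeuN+ libraries labelled DKO. In NeuN-, it was 2.82, 2.6 and 2.39 CPM in WT and 6.65, 8.04 and 9.22 CPM in the libraries labelled DKO. All libraries labelled DKO lay above all WT libraries in both sorts. The log2 fold change was 3.01 in NeuN+ and 1.61 in NeuN-, which gave an interaction of 1.40 (standard error 0.190, adjusted p = 0.00184). The means were 1.23 ± 0.0718 CPM in NeuN+ and 2.6 ± 0.216 in NeuN- of WT (SD, n = 3), and 9.94 ± 1.95 and 7.97 ± 1.29 in the libraries labelled DKO. Counts of whole genes do not show which exons were read, and every direction below is that of the libraries as labelled.

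Besides Mutyh, 5 genes rose in NeuN+ and had a more positive change there than in NeuN-. Gm15870, an antisense RNA within Tspan11 (chromosome 6, 127934689 to 127944839), had 0.114, 0.0486 and 0.0826 CPM in WT NeuN+ and 1.25, 1.52 and 1.37 in DKO NeuN+. It had 0.722, 0.484 and 0.799 CPM in WT NeuN- and 1.01, 1.14 and 1.35 in DKO NeuN-. DKO libraries were above WT libraries in both sorts, and both sorts reached a like level in DKO from a WT level that was far lower in NeuN+, where WT libraries held 7, 3 and 5 counts. The log2 fold changes of 4.05 in NeuN+ and 0.79 in NeuN- (adjusted p = 0.0872 in NeuN-) gave an interaction of 3.26 (standard error 0.379, adjusted p = 3.42e-04).

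Tspan11, a tetraspanin of the cell membrane (chromosome 6, 127887589 to 127953977), followed the same order. It had 0.843, 0.923 and 0.892 CPM in WT NeuN+ and 8.1, 10.8 and 8.91 in DKO NeuN+. In NeuN-, it had 5.85, 5.26 and 5.97 CPM in WT and 8.07, 7.71 and 12.2 in DKO. Groups did not overlap in either sort, and the means in DKO, 9.28 ± 1.40 in NeuN+ and 9.33 ± 2.51 CPM in NeuN- (SD, n = 3), were alike. The change was 3.39 in NeuN+ and 0.71 in NeuN- on the log2 scale (adjusted p = 0.142 in NeuN-), with an interaction of 2.68 (standard error 0.35, adjusted p = 0.00161). Tspan11 and Gm15870 share their locus, so they are not independent observations.

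The lincRNA 1700057H15Rik (chromosome 4, 124414416 to 124485959) rose in both sorts. It had 1.62, 1.36 and 1.83 CPM in WT NeuN+ and 22.3, 25.8 and 13.5 in DKO NeuN+. In NeuN-, it had 3.05, 2.16 and 2.03 CPM in WT and 7.31, 5.8 and 4.74 in DKO. Here the DKO level of NeuN+ lay above that of NeuN- in every library, unlike for Tspan11, and the log2 fold changes were 3.68 and 1.30 (interaction 2.37, standard error 0.321, adjusted p = 0.00184). The lincRNA 9130204K15Rik, on chromosome 11, had 1.31 to 1.67 CPM in WT NeuN+ and 2.79 to 3.28 in DKO NeuN+, against 6.15 to 7.39 and 7.2 to 7.79 in NeuN-. Its groups were apart in NeuN+ and overlapped in NeuN-, with a change of 1.02 in NeuN+ (adjusted p = 1.67e-05) and of 0.19 in NeuN- (adjusted p = 0.360) and an interaction of 0.83 (standard error 0.142, adjusted p = 0.0260).

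Slc25a18, the mitochondrial glutamate carrier, was higher in NeuN- than in NeuN+ and rose in NeuN+. It had 8.06, 9.17 and 9.93 CPM in WT NeuN+ and 12.2, 14.8 and 14.4 in DKO NeuN+. In NeuN-, it had 41.5, 42.4 and 46.4 CPM in WT and 36.7, 41.4 and 40.2 in DKO. All DKO NeuN+ libraries were above WT, whereas the DKO NeuN- libraries were below the lowest WT value. The change was 0.61 in NeuN+ (adjusted p = 1.85e-04) and -0.14 in NeuN- (adjusted p = 0.403), and the interaction was 0.75 (standard error 0.107, adjusted p = 0.00337). Slc25a18 overlaps Atp6v1e1 on the other strand.

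Next came genes that fell in NeuN- and whose change in NeuN+ did not pass. Wnt5b, a secreted Wnt ligand, had 34.5, 34.8 and 30.1 CPM in WT NeuN- and 16.3, 16.3 and 17.9 in DKO NeuN-. In NeuN+, it had 18.4, 19.1 and 17.2 CPM in WT and 15.5, 14.5 and 17 in DKO. The groups were apart in both sorts, by far more in NeuN-, and the DKO level of NeuN- came close to that of NeuN+, 16.8 ± 0.934 against 15.7 ± 1.28 CPM (SD, n = 3). Wnt5b fell by 0.98 in NeuN- on the log2 scale (adjusted p = 2.08e-06) and changed by -0.22 in NeuN+ (adjusted p = 0.289), with an interaction of 0.76 (standard error 0.121, adjusted p = 0.0115).

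Gm44596, a gene model on chromosome 6 that overlaps Foxm1, Nrip2 and Tex52 on its own strand, had 41.6, 36.6 and 32.6 CPM in WT NeuN- and 20.4, 16.8 and 14.8 in DKO NeuN-. In NeuN+, the WT libraries held 13.2 to 15.5 CPM and the DKO libraries 11.9 to 13.5. The groups were apart in NeuN- and overlapped in NeuN+, with changes of -1.09 (adjusted p = 2.42e-06) and -0.17 (adjusted p = 0.542) and an interaction of 0.92 (standard error 0.143, adjusted p = 0.0100). Zfp69, a zinc finger protein gene on chromosome 4, had 12.7, 12.1 and 13.3 CPM in WT NeuN- and 7.62, 7.59 and 9.93 in DKO NeuN-, and 8.36 to 9.83 and 9.64 to 11.1 CPM in NeuN+. It was lower in all 3 DKO NeuN- libraries and overlapped between the genotypes in NeuN+, with changes of -0.60 (adjusted p = 0.0023) and 0.17 (adjusted p = 0.518). The interaction of Zfp69 was 0.77 (standard error 0.134, adjusted p = 0.0280) and passed in 12 of 22 other settings.

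**Figure D2:**
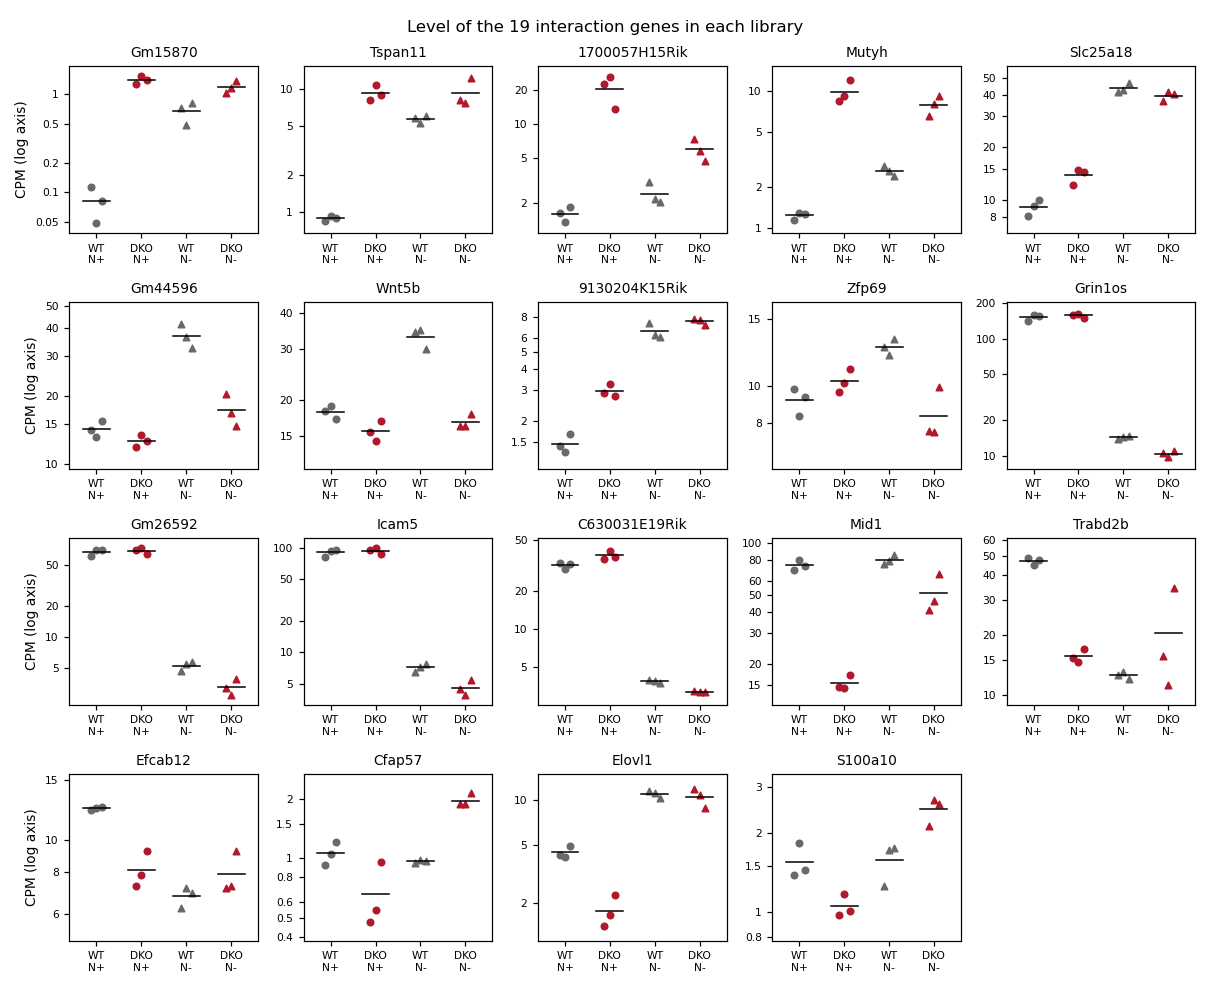
CPM on a log axis in each of the 12 libraries for the 19 interaction genes, with WT in grey, DKO in red, NeuN+ (N+) as circles, NeuN- (N-) as triangles and the group mean as a line. Tspan11, Gm15870 and Mutyh start lower in WT NeuN+ than in WT NeuN- and end at like levels in DKO, whereas Wnt5b starts higher in WT NeuN- and ends at the level of NeuN+.

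Of the 6 genes with a more negative change in NeuN+, Mid1 had the smallest p of all genes tested. Mid1 encodes a ubiquitin ligase that binds microtubules and lies on chromosome X from 169685199 to 170005736. Its level was 69.5, 80.1 and 73.2 CPM in WT NeuN+ and 14.7, 14.5 and 17.2 in DKO NeuN+. In NeuN-, it was 75.6, 78.2 and 85 CPM in WT and 40.8, 45.9 and 66.4 in DKO. WT levels were alike in the sorts, and the DKO libraries were below WT in both, with the third replicate of DKO NeuN- nearest to WT. Mid1 fell by 2.26 in NeuN+ (adjusted p = 5.22e-10) and by 0.64 in NeuN- (adjusted p = 0.0137), which gave an interaction of -1.62 (standard error 0.174, adjusted p = 1.82e-04). G530011O06Rik and Gm15247, which overlap Mid1 on the other strand, were DEGs in both sorts with changes of -2.90 and -3.49 in NeuN+ and of -1.73 and -2.23 in NeuN-, and their interactions did not pass (adjusted p = 0.0700 and 0.195).

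Trabd2b, a membrane protease that acts on Wnt ligands, had 49.1, 45.3 and 47.7 CPM in WT NeuN+ and 15.3, 14.7 and 17.1 in DKO NeuN+. In NeuN-, it had 12.7, 13.1 and 12.1 CPM in WT and 15.8, 11.2 and 34.4 in DKO. The fall in NeuN+ was seen in every library, while the NeuN- groups overlapped and 1 DKO library, replicate 3, stood high. The change was -1.59 in NeuN+ (adjusted p = 0.00644) and 0.69 in NeuN- (adjusted p = 0.265), with an interaction of -2.28 (standard error 0.391, adjusted p = 0.0260). This interaction passed in 13 of 22 other settings.

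Elovl1, which elongates very long fatty acids, had 4.27, 4.1 and 4.92 CPM in WT NeuN+ and 1.4, 1.66 and 2.29 in DKO NeuN+, against 10.3 to 11.6 and 8.8 to 12 CPM in NeuN-. The groups were apart in NeuN+ and overlapped in NeuN-, with changes of -1.30 (adjusted p = 2.68e-04) and -0.06 (adjusted p = 0.900) and an interaction of -1.24 (standard error 0.228, adjusted p = 0.0405) that passed in 9 of 22 other settings. Efcab12, named for its EF-hand domains, had 12.2 to 12.5 CPM in WT NeuN+ and 7.3 to 9.25 in DKO NeuN+, and 6.26 to 7.17 against 7.19 to 9.22 CPM in NeuN-. All 3 DKO libraries were below WT in NeuN+ and above WT in NeuN-, where the change of 0.21 did not pass (adjusted p = 0.351). Efcab12 fell by 0.60 in NeuN+ (adjusted p = 0.00359) with an interaction of -0.82 (standard error 0.142, adjusted p = 0.0280) that passed in 13 of 22 other settings.

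Cfap57 and S100a10 rose in NeuN-, and their change in NeuN+ was negative and did not pass. Cfap57, a gene of motile cilia, had 0.952, 0.981 and 0.97 CPM in WT NeuN- and 1.88, 1.88 and 2.14 in DKO NeuN-, and 0.925 to 1.21 against 0.477 to 0.956 CPM in NeuN+. The NeuN- groups were apart and the NeuN+ groups overlapped, with changes of 1.02 (adjusted p = 0.0165) and -0.67 (adjusted p = 0.186) and an interaction of -1.69 (standard error 0.300, adjusted p = 0.0320). The interaction of Cfap57 passed in 11 of 22 other settings. S100a10, the partner of annexin A2, had 1.26, 1.73 and 1.75 CPM in WT NeuN- and 2.14, 2.69 and 2.58 in DKO NeuN-, and 1.38 to 1.83 against 0.97 to 1.17 CPM in NeuN+. DKO libraries of S100a10 were above WT in NeuN- and below WT in NeuN+, with changes of 0.64 (adjusted p = 0.0449) and -0.57 (adjusted p = 0.121). The interaction of S100a10 was -1.21 (standard error 0.223, adjusted p = 0.0405) and passed in 9 of 22 other settings. Beside Cfap57, the summed level of the 5 ependymal markers, whose cells carry motile cilia, was 8.81 to 9.63 CPM in WT NeuN- and 11.9 to 16.9 in DKO NeuN-, and its part in the result was not tested. At such sums a shift in the number of cells of a type and a shift in RNA per cell cannot be told apart in bulk nuclei, here as in every comparison below.

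The interaction genes were not spread evenly over the genome. Positions were known for all 19 and for 32426 of the 33523 tested genes. Within 10 Mb of Ogg1 or Mutyh lay 9 of the 19 (47.4%), Mutyh itself included, against 616 of all 32426 (1.9%). Within 20 Mb lay 12 of 19 (63.2%) against 1215 (3.75%), and these 12 were also all the interaction genes on chromosomes 4 and 6, which hold 10.9% of the tested genes. Around Mutyh on chromosome 4, Elovl1 lay at 1.61 Mb, Cfap57 at 1.74 Mb, Trabd2b at 2.19 Mb, Zfp69 at 4.11 Mb and 1700057H15Rik at 7.59 Mb. Around Ogg1 on chromosome 6, Efcab12 lay at 2.48 Mb, Wnt5b at 6.1 Mb, Slc25a18 at 7.44 Mb, Tspan11 at 14.55 Mb, Gm15870 at 14.6 Mb and Gm44596 at 15.04 Mb. Both directions of interaction were found near the deleted genes, 8 of the 13 more positive and 4 of the 6 more negative genes lying within 20 Mb. The part of position in these differences was not tested. Outside these stretches lay Mid1, 9130204K15Rik, S100a10, Grin1os, Gm26592, Icam5 and C630031E19Rik.

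**Figure D3:**
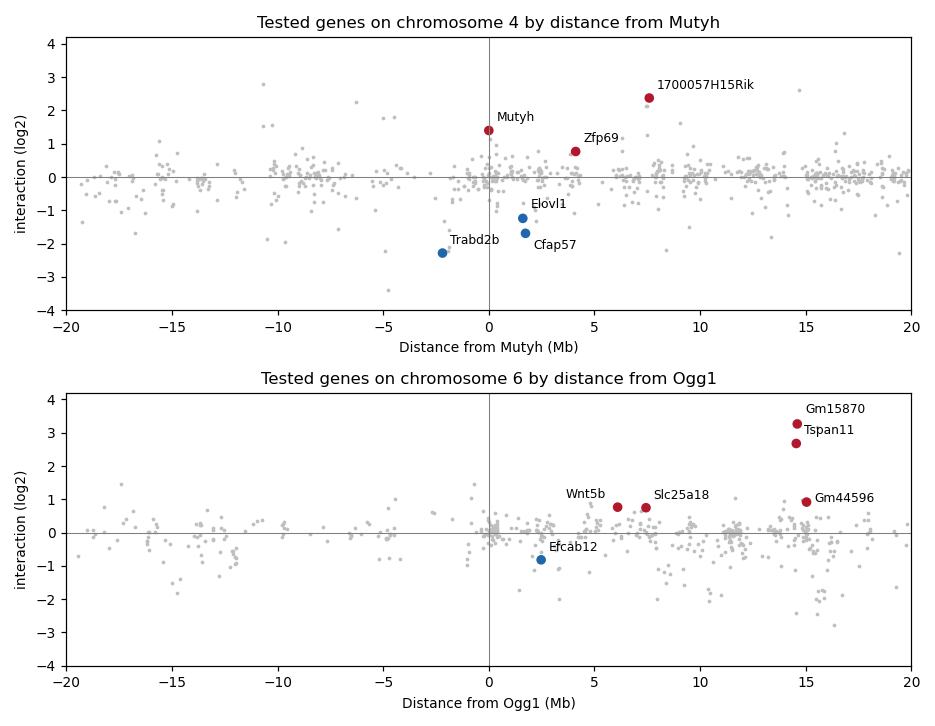
Interaction on the log2 scale (vertical axis) of the tested genes within 20 Mb of Mutyh on chromosome 4 and of Ogg1 on chromosome 6, by distance in Mb from that gene (horizontal axis), with the interaction genes in colour and the others in grey. The 6 interaction genes of chromosome 4 span -2.28 to 2.37 and the 6 of chromosome 6 span -0.82 to 3.26.

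The single knockouts put values beside the 12 genes of chromosomes 4 and 6. They share the WT libraries with the DKO comparison, so the likeness of the values is not independent. The interaction of Tspan11 was -0.53 in Mutyh-/- and 2.63 in Ogg1-/- (adjusted p = 0.00114), and that of Gm15870 was 0.08 and 3.32. Wnt5b (0.36 and 0.85) and Gm44596 (0.38 and 0.97) passed in Ogg1-/- with adjusted p-values of 0.00252 and 0.00366 from edgeR. For genes of chromosome 4, the values that passed were in Mutyh-/-, with 1.28 for Mutyh itself (-0.19 in Ogg1-/-), 2.42 for 1700057H15Rik (0.63 in Ogg1-/-) and 0.83 for Zfp69 (0.04 in Ogg1-/-). Trabd2b had -2.04 in Mutyh-/- and -0.34 in Ogg1-/-, and Elovl1 had -1.11 and 0.43, of which none passed. Slc25a18 had 0.05 in Mutyh-/- and 0.55 in Ogg1-/-, Efcab12 had -0.21 and -0.66, and Cfap57 had -1.33 and -0.04, again with none passing. On other chromosomes, 9130204K15Rik passed in Mutyh-/- at 0.84 (-0.12 in Ogg1-/-). Mid1 passed in both, at -1.26 and -1.80. The others had the sign of the DKO in both single knockouts, and none passed. In Mutyh-/- and Ogg1-/-, Grin1os had 0.31 and 0.40, Icam5 0.29 and 0.41 and Gm26592 0.23 and 0.43. C630031E19Rik had 0.09 and 0.20, and S100a10 had -0.40 and -0.72.

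The remaining genes that were more positive in NeuN+ are expressed far higher in neurons. Grin1os, an antisense RNA of Grin1 on chromosome 2, had 13.9, 14.5 and 14.8 CPM in WT NeuN- and 10.5, 9.65 and 11 in DKO NeuN-, against 140 to 158 and 151 to 163 CPM in NeuN+. The groups were apart in NeuN- and overlapped in NeuN+, with changes of -0.47 (adjusted p = 0.00144) and 0.06 (adjusted p = 0.794) and an interaction of 0.53 (standard error 0.0958, adjusted p = 0.0373). The interaction of Grin1os passed in 10 of 22 other settings. Grin1, which encodes the obligate subunit of NMDA receptors, had 29.6, 33.6 and 32.5 CPM in WT NeuN- and 23.2, 20.6 and 23.5 in DKO NeuN-, with the same interaction of 0.53 just outside the threshold (standard error 0.103, adjusted p = 0.0662). The pair overlaps on opposite strands, so their counts are uncertain and not independent.

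Icam5, an adhesion molecule of neuronal dendrites (chromosome 9, 21032073 to 21039036), had 6.49, 7.28 and 7.74 CPM in WT NeuN- and 4.44, 3.91 and 5.36 in DKO NeuN-, against 82.7 to 95.5 and 88 to 99.2 CPM in NeuN+. Its antisense partner Gm26592 had 4.72, 5.46 and 5.74 CPM in WT NeuN- and 3.27, 2.79 and 3.96 in DKO NeuN-. Both were lower in every DKO NeuN- library and overlapped in NeuN+, with changes in NeuN- of -0.65 for Icam5 and -0.67 for Gm26592 and an interaction of 0.71 for each (standard errors 0.131 and 0.130, adjusted p = 0.0405), which passed in 9 and 10 of 22 other settings. C630031E19Rik, antisense within the neuronal gene Myt1l on chromosome 12, had 3.95, 3.91 and 3.72 CPM in WT NeuN- and 3.25, 3.16 and 3.19 in DKO NeuN-, against 29.7 to 33.2 and 35.3 to 41.2 CPM in NeuN+. The groups were apart in both sorts and in opposite directions, although neither change passed on its own (0.25, adjusted p = 0.0668, and -0.27, adjusted p = 0.102), and the interaction was 0.52 (standard error 0.0978, adjusted p = 0.0465), which passed in 7 of 22 other settings.

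These 4 genes belong to a class that is described next by its medians. The sort preference of each gene was taken from the Mutyh-/- and Ogg1-/- libraries, which do not enter the contrast, for genes with a mean of at least 1 CPM. These libraries did enter the same fit. The 4 genes above had the same sign of interaction in both single knockouts, so the classes are not fully independent of the DKO effect. The 1126 genes over 8 times higher in NeuN+ had a median interaction of 0.285, and 31.5% of them had an unadjusted p under 0.05 with a positive sign, against 4.64% of all genes tested. Their median change was 0.0563 in NeuN+ and -0.24 in NeuN-, so the class was lower in the sort in which it is scarce. The 1570 genes over 8 times higher in NeuN- gave the mirror image, a median interaction of -0.221 with a median change of -0.163 in NeuN+ and 0.0496 in NeuN-, and 16.6% of them had an unadjusted p under 0.05 with a negative sign, against 4.76% of all genes. Genes within 2 times of each other in the sorts (12791) had a median interaction of 0.0127. Genes 2 to 8 times higher in NeuN+ (3192) had 0.0609 and those 2 to 8 times higher in NeuN- (2787) had -0.0288. At an adjusted p under 0.05, 4 of the 1126 were called, namely Grin1os, Icam5, Gm26592 and C630031E19Rik, and 0 of the 1570 by the quasi-likelihood test. Over all 33523 genes tested, that test called 13 positive (0.0388%) and 6 negative (0.0179%). Of the 1126, DESeq2 called 88, the likelihood ratio test 36 and limma voom 2, all of them positive. Among all genes tested, DESeq2 called 170 positive and 36 negative, the likelihood ratio test 61 and 32 and limma voom 10 and 5. Of the 1570, 22 were positive and 260 negative at an unadjusted p under 0.05, DESeq2 called 2 and 17, and the likelihood ratio test called 1 and 8.

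**Figure D4:**
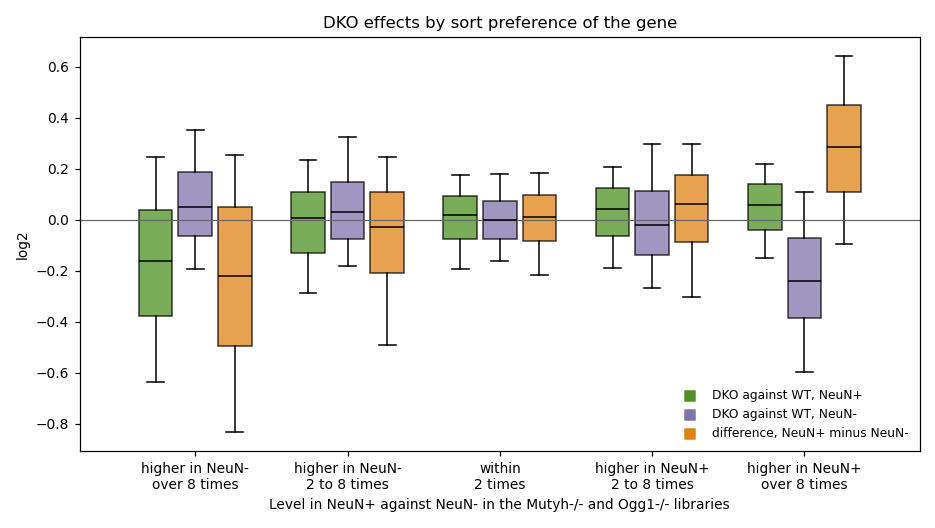
Log2 change of DKO against WT in NeuN+ (green) and NeuN- (purple) and their difference (orange) for genes grouped by how much higher they are in one sort, with boxes from the first to the third quartile, a line at the median and whiskers from the 10th to the 90th percentile. The median difference goes from -0.221 in genes over 8 times higher in NeuN- to 0.285 in genes over 8 times higher in NeuN+.

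The third replicate of DKO NeuN- weighed on this class. Genes over 8 times higher in NeuN+ took 1.62%, 1.89% and 1.85% of the counts in WT NeuN- and 1.44%, 1.40% and 1.81% in DKO NeuN-, so that replicate 3 lay among the WT libraries and the other 2 below them. Without that replicate, an alternative chosen after seeing the data, the median interaction of the class was 0.408 and its median change in NeuN- was -0.359. The number of interaction genes was then 115, of which 75 belonged to this class, all of them more positive in NeuN+. The same library stood apart from the other NeuN- libraries in a principal component analysis, at 39.5 on a first component on which the other 5 lay between -20.2 and 3.15.

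Marker lists were read beside these values, against shares of 4.64% higher and 4.76% lower among all genes tested at an unadjusted p under 0.05. DESeq2 called 170 of all genes tested higher and 36 lower, the likelihood ratio test 61 and 32 and limma voom 10 and 5. The summed level of 10 neuronal markers was 796.4, 868.8 and 891.6 CPM in WT NeuN- and 710.5, 722.6 and 794.4 in DKO NeuN-. Replicate 3 of DKO NeuN- thus lay only just below the lowest WT value. Single knockouts had NeuN- sums of 781.4, 799.1 and 803.2 CPM (Mutyh-/-) and 732.8, 817.2 and 742.1 (Ogg1-/-). In NeuN+, the summed level was 6720 to 7039 CPM in WT and 7100 to 7443 in DKO. All 10 neuronal markers were below 0 in NeuN-, with a median change of -0.26 against 0.01 for all genes, and 7 of the 10 interactions were positive (median 0.26). At an unadjusted p under 0.05, 5 of the neuronal interactions were higher and 0 lower, and none was called by the quasi-likelihood test, against 3 by DESeq2, 2 by the likelihood ratio test and 1 by limma voom. Rbfox3 itself, the gene of the sorting antigen, had an interaction of 0.64 (adjusted p = 0.182, edgeR) and Camk2a, a kinase of excitatory synapses, had 0.37 (adjusted p = 0.240).

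The astrocyte markers lay the other way. Their 8 genes summed to 2871, 2917 and 3406 CPM in WT NeuN- and 3673, 3714 and 3558 in DKO NeuN-, with no overlap. In NeuN+, where they are scarce, the sums were 302.2 to 368 CPM in WT and 277.8 to 333.8 in DKO, which overlapped. The median change was -0.23 in NeuN+, with all 8 below 0, and 0.19 in NeuN-, with 7 above 0. All 8 interactions were negative (median -0.48). An unadjusted p under 0.05 was reached by 5 of the 8, and none was called by the quasi-likelihood test and 1 by DESeq2. Gfap, the filament protein of astrocytes, rose by 0.52 in NeuN- (adjusted p = 0.0376), with an interaction of -0.63 (adjusted p = 0.274), and Aqp4, the water channel of their endfeet, had an interaction of -0.76 (adjusted p = 0.240). The 8 oligodendrocyte markers summed to 7376, 6586 and 6806 CPM in WT NeuN- and 6107, 6128 and 4903 in DKO NeuN-, again with no overlap, but their median interaction was 0.01. Their sums in the single knockouts were 6195, 5679 and 5569 CPM in Ogg1-/- NeuN- and 7330, 7193 and 6022 in Mutyh-/- NeuN-. Cnp, an enzyme of myelin, fell by 0.52 in NeuN- (adjusted p = 0.0204), with an interaction of 0.46 (adjusted p = 0.336). The part of these shifts in the interaction of the neuron-enriched genes was not tested.

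Choroid plexus markers varied most between libraries. Their 7 genes summed to 39.5, 43.6 and 70.8 CPM in WT NeuN- and 9.30, 72.4 and 255.2 in DKO NeuN-, with the highest value in replicate 3, and the median interaction of -2.04 came with only 1 unadjusted p under 0.05. The 5 ependymal markers had a median of -1.45 and 2 such genes, Dynlrb2 at -2.40 (adjusted p = 0.284) and Ccdc153 at -1.63 (adjusted p = 0.377). In NeuN+ these genes were near the floor. Dynlrb2 had 6, 7 and 3 counts there in WT and 3, 3 and 2 in DKO, and Ccdc153 had 9, 13 and 6 against 6, 6 and 11. Folr1, the choroid plexus gene with an unadjusted p under 0.05, had 11, 13 and 7 against 3, 3 and 2. Oligodendrocyte precursor (6 genes, median -0.32), endothelial and pericyte (7, -0.30), interneuron (10, 0.20), hippocampal subfield (10, 0.17) and microglial markers (8, -0.00) had between 0 and 2 genes at an unadjusted p under 0.05. The 4 genes of the Y chromosome, which both sorts of these male mice carry, had a median of -0.04 and none. No marker was called by the quasi-likelihood test, and beyond the neuronal and astrocyte ones DESeq2 called 1, a hippocampal subfield marker.

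**Figure D5:**
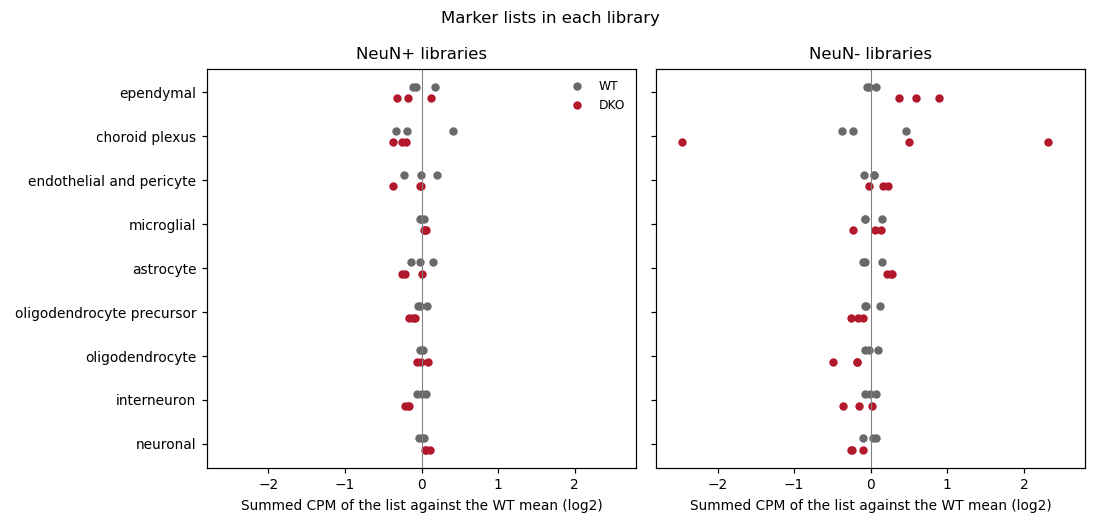
Summed CPM of each marker list in each WT (grey) and DKO (red) library, as the log2 ratio to the mean of the 3 WT libraries of the same sort, for NeuN+ and NeuN- libraries. In NeuN-, neuronal and oligodendrocyte sums of the DKO lie below WT, the astrocyte and ependymal sums lie above WT, and choroid plexus sums spread from 9.30 to 255.2 CPM. The highest neuronal sum of the DKO in NeuN- lies only just below the lowest WT sum.

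Receptor lists leaned to the positive side, with no gene called by the quasi-likelihood test. At an unadjusted p under 0.05, 4.64% of all genes tested were higher, against 31.5% of the class over 8 times higher in NeuN+. Grin1, Camk2b, Cacng2 and Gabra5 belong to that class. Among all genes tested, DESeq2 called 170 higher, the likelihood ratio test 61 and limma voom 10. Of 11 NMDA receptor subunits and partners, 9 interactions were positive (median 0.13) and 4 had an unadjusted p under 0.05, all higher, and none was called by the quasi-likelihood test, against 4 by DESeq2, 2 by the likelihood ratio test and 1 by limma voom. Besides Grin1, Camk2b, a kinase subunit at these receptors, had an interaction of 0.46 (adjusted p = 0.0861, edgeR) and fell by 0.36 in NeuN- (adjusted p = 0.0125). AMPA and kainate receptor genes (13) had a median of 0.15 with 5 at an unadjusted p under 0.05, led by Cacng2 at 0.45 (adjusted p = 0.338), which traffics AMPA receptors. GABA-A receptor genes (12) had a median of 0.15 with 5 such genes, and Gabra5, a receptor subunit abundant in the hippocampus, fell by 0.56 in NeuN- (adjusted p = 0.0152), with an interaction of 0.52 (adjusted p = 0.242). Of 12 nuclear long noncoding RNAs, 4 had an unadjusted p under 0.05, all higher. Among them Miat, a neuronal nuclear RNA, had 0.48 (adjusted p = 0.0861), and the median was 0.15. No gene of the AMPA, GABA-A or noncoding RNA lists was called by the quasi-likelihood test, while DESeq2 called 1 GABA-A receptor gene and 1 noncoding RNA and the likelihood ratio test 1 noncoding RNA.

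Glycolysis and respiratory chain genes leaned to the negative side. The share of all genes tested that was lower at an unadjusted p under 0.05 was 4.76%. Of 21 glycolysis genes, 18 interactions were below 0 (median -0.30), 11 had an unadjusted p under 0.05, all lower, and 0 were called, be it by edgeR's quasi-likelihood or likelihood ratio test, DESeq2 or limma voom. Their median change was -0.25 in NeuN+ and 0.01 in NeuN-. Pgam1, which moves a phosphate within glycolysis, fell by 0.56 in NeuN+ (adjusted p = 0.00248) with an interaction of -0.41 (adjusted p = 0.299), and Ldhb, a lactate dehydrogenase subunit, fell by 0.36 (adjusted p = 0.0358) with an interaction of -0.39 (adjusted p = 0.242). Of 71 respiratory chain genes, 62 were below 0 (median -0.13) and 12 had an unadjusted p under 0.05, all lower, with none called by any of these tools. Ndufs5, a subunit of complex I, fell in both sorts, by 0.87 (adjusted p = 2.56e-05) and 0.44 (adjusted p = 0.0332). Its interaction was -0.44 (adjusted p = 0.294).

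Ribosomal protein and cytoskeleton genes had negative medians in both sorts. The 80 cytosolic ribosomal protein genes had a median change of -0.28 in NeuN+, with 79 below 0, and of -0.20 in NeuN-, with 80 below 0. Their median interaction was -0.09, and 1 of 80 had an unadjusted p under 0.05, Rps25 at -0.30. The 18 tubulin and actin genes, all below 0 in both sorts, had medians of -0.42 and -0.31, a median interaction of -0.13 and 3 interactions at an unadjusted p under 0.05. Camk1, a calmodulin-dependent kinase beside Ogg1, was a DEG in both sorts with changes of -0.53 (adjusted p = 0.00111) and -0.58 (adjusted p = 2.48e-04), and its interaction was 0.05 ± 0.109 (standard error). In all, 23 genes were DEGs in both sorts (8 higher and 15 lower), among them 1700021L23Rik, at 5.62 and 4.36, whose interaction of 1.27 had a standard error of 1.67.

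The remaining lists held 2 genes called by the quasi-likelihood test, Mutyh and Mid1. Over all genes tested, 4.64% were higher and 4.76% lower at an unadjusted p under 0.05, and DESeq2 called 206 genes. Of 22 base excision repair genes, Mutyh was the one called by each tool, 4 had an unadjusted p under 0.05 with a positive sign and 1 with a negative sign, and the median was 0.07. Nthl1, a glycosylase for oxidised pyrimidines, had 0.51 (adjusted p = 0.309, edgeR). Of 12 genes of polycomb repressive complex 2, which methylates histone H3, 1 had an unadjusted p under 0.05, Ezh1 at 0.17 (adjusted p = 0.445), and the median was 0.06. Of 47 axon guidance genes (median 0.08), the quasi-likelihood test called Mid1 alone, DESeq2 called 4 higher and 1 lower and the likelihood ratio test 2 higher and 1 lower, and 9 were higher and 5 lower at an unadjusted p under 0.05. Plxna4, a semaphorin receptor, had 0.36 (adjusted p = 0.108). The cAMP signalling genes (28, median 0.04, 2 higher and 1 lower), immediate early genes (17, median -0.09, none at an unadjusted p under 0.05), heat shock genes (16, all below 0, median -0.28, none at an unadjusted p under 0.05) and interferon response genes (21, median -0.11, 1 higher and 2 lower) held no call by any of these tools. Of 11 genes that the study names in its text, chosen on these samples and so no independent evidence, none was called, 5 were higher and 1 lower at an unadjusted p under 0.05, while DESeq2 called 5 higher and 1 lower, the likelihood ratio test 3 and limma voom 1. Grm7, a presynaptic glutamate receptor, fell by 0.58 in NeuN- (adjusted p = 1.80e-04) with an interaction of 0.41 (adjusted p = 0.186), Glis1 had 0.69 (adjusted p = 0.186) and Oaf had -0.95 (adjusted p = 0.306).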

How the data were processed

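The authors aligned read pairs to GRCm38 with HISAT2 2.1.0 and deposited raw counts per gene from featureCounts (Ensembl release 102) for 55254 symbols, and the submitters' processing notes also name SAMtools 1.10, FastQC 0.11.9, R 4.3.2 and edgeR 3.42.4. Strand and multi-mapping settings are not given in the sources used here. Both tables were joined by symbol, and all 24 libraries were fitted with 1 mean per group (8 groups), TMM factors and filterByExpr with R 4.3.3 and edgeR 4.0.16, with a biological coefficient of variation of 0.105. The interaction and the DKO effects were tested by the quasi-likelihood method, with Benjamini-Hochberg adjustment over all genes. Standard errors were derived from the F statistic. CPM were computed from counts and TMM factors. Alternatives were DESeq2 1.42.0, limma 3.58.1 (voom), the likelihood ratio test, other size factors and filters, the 12 libraries alone, replicate blocks and leaving out each library. The scripts were tested on simulated data. Libraries of a group differed in at least 94.9% of genes with a count.

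Genes were named by rule: Ogg1, Mutyh, up to 15 interaction genes per direction by p, the 2 with the smallest p in each list, genes named by the study and 5 DEGs of both sorts. Values of some of these are given only in counts. The members and lists were chosen with earlier results of these data known. Positions came from GENCODE vM21 on GRCm38 by symbol.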

Additional observations from a re-analysis of the deposited data

Results flagged for a closer look

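In 19 genes the difference between the DKO effects in NeuN+ and NeuN- passed its own test. On the log2 scale the interaction was 3.26 for Gm15870, 2.68 for Tspan11, 2.37 for 1700057H15Rik, 1.40 for Mutyh, 0.92 for Gm44596, 0.83 for 9130204K15Rik, 0.77 for Zfp69, 0.76 for Wnt5b, 0.75 for Slc25a18, 0.71 for Gm26592, 0.71 for Icam5, 0.53 for Grin1os and 0.52 for C630031E19Rik. It was -2.28 for Trabd2b, -1.69 for Cfap57, -1.62 for Mid1, -1.24 for Elovl1, -1.21 for S100a10 and -0.82 for Efcab12. All were called with edgeR's quasi-likelihood test at an adjusted p under 0.05. Of 22 other settings, however, C630031E19Rik passed in 7, Elovl1, S100a10 and Icam5 in 9, and Grin1os and Gm26592 in 10. Cfap57 passed in 11, Zfp69 in 12, Trabd2b and Efcab12 in 13 and 9130204K15Rik in 15.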

How the results depend on the processing

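All 19 interaction genes kept their sign under every alternative in which they were tested. Mid1, Mutyh and Tspan11 passed all 22 alternatives, Gm15870 passed 20 of 21, and 1700057H15Rik and Slc25a18 21 of 22. Wnt5b passed 20, Gm44596 19, 9130204K15Rik 15, Trabd2b and Efcab12 13, Zfp69 12 and Cfap57 11. Grin1os and Gm26592 passed 10, Elovl1, S100a10 and Icam5 9 and C630031E19Rik 7. The number of interaction genes was 32 (23 more positive) without a filter on low counts, 93 (61 and 32) with the likelihood ratio test, 206 (170 and 36) with DESeq2 and 11 (7 more positive) with the 12 libraries alone, of which 6 were among the 19. DEGs numbered 235 in NeuN+ and 308 in NeuN- with the likelihood ratio test, and 207 and 306 with DESeq2. With each library left out in turn, the number of interaction genes ranged from 7 to 115 (6 to 99 more positive and 1 to 16 more negative), NeuN+ DEGs from 55 to 149 and NeuN- DEGs from 59 to 328. The number of interaction genes was 7 without replicate 2 of WT NeuN+, DKO NeuN+ or WT NeuN-, 8 and 9 without replicate 3 of WT NeuN+ and WT NeuN-, 12 without replicate 1 of WT NeuN+ or WT NeuN- or replicate 2 of DKO NeuN-, and 115, which held all 19, without replicate 3 of DKO NeuN-. More negative genes numbered 1 without DKO NeuN+ replicate 1. NeuN+ DEGs numbered 55 without WT replicate 2 or DKO replicate 3. NeuN- DEGs numbered 81 and 59 without WT replicates 2 and 3, and 328 without DKO replicate 1. Single genes were followed through the settings only for Ogg1 and the named genes with an unadjusted interaction p under 0.05. Of these, Ogg1 alone reversed, to 0.04 without WT NeuN+ replicate 2, and ranged from -0.17 to 0.04. Other named genes were not checked for a change of sign. The cause of these shifts was not tested.

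With a replicate block that pairs the sorts by genotype and number, 53 genes passed (30 and 23), 17 of the 19 among them, but Elovl1 (adjusted p = 0.0732) and C630031E19Rik (0.0557) did not. In 3 of the 6 WT and DKO pairs, those of DKO, the deviations correlated above 0.1, so the numbers were not taken as pairs, although all 6 correlated best with their own number. With the block across genotypes within a sort, 24 genes passed (17 and 7) and NeuN+ and NeuN- DEGs numbered 171 and 211. The medians of the classes over 8 times higher in NeuN+ and NeuN- ranged from 0.24 to 0.408 and from -0.299 to -0.163 over the settings in which they were computed. These left out DESeq2, limma voom, the likelihood ratio test and the block across genotypes, and were chosen for the classes after seeing the data.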
